A study of Rattus norvegicus with 8 samples.

Results

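The genes described here encode the enzymes that methylate transfer RNA (tRNA) and those that load it with amino acids. They were taken from the array annotation by name: every gene whose symbol begins with Trmt and a number or the letter u, and 36 named aminoacyl-tRNA synthetases. The rule found 50 genes of the 17444 measured, on 62 of 45598 probes. Of these, 14 are Trmt genes, 20 are cytosolic synthetase genes and 16 are mitochondrial synthetase genes. The difference between nanotube-exposed and control cells was already known when the genes were chosen. The values of that contrast are therefore given as a description.

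The cells were NR8383, a line of rat alveolar macrophages established by lung lavage of a normal rat and grown partly attached and partly floating. In the exposed group, 4 cultures were kept for 4 h with 0.17 µg/mL of NM401, a multi-walled carbon nanotube. In the control group, 4 cultures were kept for 4 h at 0 µg/mL. Serum was left out of the medium during incubation in both groups, and the submitters call the 4 cultures of each group biological replicates. The design is limited to a single line, dose and time point.

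A tRNA is transcribed by RNA polymerase III, trimmed, modified at many of its bases and then charged with its amino acid by an aminoacyl-tRNA synthetase. Methyl groups placed by Trmt enzymes fold and stabilise the tRNA or, beside the anticodon, keep the ribosome in frame. Cytosol and mitochondria each need charged tRNA: most mitochondrial synthetases come from separate nuclear genes whose symbols end in 2, while Gars and Kars serve both compartments from a single gene. In the integrated stress response, uncharged tRNA activates the kinase GCN2 and raises the factor ATF4, whose known targets include several cytosolic synthetase genes.

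Each array was a one-colour Agilent design. A level below is log2 of the deposited background-subtracted signal minus the log2 75th percentile of the same array, so 0 is the brightness of that percentile and a level is relative to the other RNA on the array. A difference is the NM401 mean minus the control mean of such levels, with its standard error (SE, n = 4 arrays a group). A gene is called higher or lower where limma's adjusted p over all 21684 tested probes was below 0.05. Of the 62 probes, 59 were tested, and all 50 genes had a probe well above background on all 8 arrays. The 3 untested probes were second probes of Trmt44, Ears2 and Pars2, which were well above background on 0 of 8 arrays. No spot on any array was saturated.

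Well-above-background spots made up 53.9% to 58.0% of non-control spots on NM401 arrays and 51.7% to 56.0% on control arrays. The 75th percentile lay at a signal of 2537 to 2878 on NM401 arrays and 958 to 1489 on control arrays. The spike-in transcripts, relative to that percentile, lay between -2.57 and -1.55 on NM401 arrays and between -0.71 and 0.97 on control arrays (log2), so the differences describe RNA relative to the other RNA of the array and not amount per cell. Of 14 macrophage markers, 12 were tested, and Marco and Cd163 were well above background on 0 arrays; the summed macrophage level was 127 to 134 times the percentile on NM401 arrays and 141 to 149 times on control arrays. Only 1 of 12 epithelial, 2 of 11 lymphocyte and 3 of 9 neutrophil markers were tested, while 6 of 10 stromal and endothelial markers were. The summed lymphocyte level was 0.171 to 0.283 on NM401 arrays and 0.342 to 0.426 on control arrays. The summed neutrophil level was 0.301 to 0.431 on NM401 arrays and 0.455 to 0.641 on control arrays. Neither list overlapped, but only 1 of the 3 neutrophil markers was well above background on all 8 arrays. Groups overlapped for the summed stromal and endothelial level (3.16 to 3.24 with NM401, 2.96 to 3.83 in control) and for the epithelial marker (0.093 to 0.122, 0.098 to 0.130). Their part in the results was not tested. One slide held NM401 replicate 1 and all 4 control arrays, and the other held NM401 replicates 2 to 4. The slide row was 2 for every NM401 array and 1 for every control array, and its effect cannot be told apart from that of exposure.

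Of the 50 genes, 14 were called higher with NM401, 13 lower and 23 neither. Over all 17444 genes 57.3% were called, 21.9% higher and 35.4% lower, and because the contrast was in view when the genes were chosen, nothing is read from that comparison. Among the 14 Trmt genes, 7 were called higher and 0 lower by limma. At an unadjusted limma p below 0.05 the counts were the same, 7 and 0, beside 4280 and 6732 of all 17444 genes. Among the 20 cytosolic synthetase genes, 3 were called higher and 6 lower. Among the 16 mitochondrial synthetase genes, 4 were called higher and 7 lower. These splits moved with the scaling, as did those of all genes. Median scaling gave 26 higher and 4 lower in all (11 and 0 of the Trmt, 10 and 1 of the cytosolic, 5 and 3 of the mitochondrial genes), with 35.0% of all genes higher and 19.3% lower in that fit. Quantile normalisation gave 17 and 11, with 27.4% and 27.9% of all genes. Normexp background correction gave 13 higher and 17 lower, with 7 and 0 of the Trmt, 5 and 6 of the cytosolic and 1 and 11 of the mitochondrial genes, and 15.7% and 53.9% of all genes. Of the 23 genes not called, 12 were called higher under median scaling and 1 with slide as a block, and normexp called 3 higher and 4 lower. Differences were mostly small: a called change of at least 1.5-fold was seen for Trmt13, Trmt61a and Cars upward and for Cars2 downward, beside 7.05% of all genes upward and 15.2% downward. The median difference was 0.18 over the Trmt genes, 0.02 over the cytosolic and -0.15 over the mitochondrial synthetases, beside -0.10 over all genes. Scaling to the median spot shifted every gene by one constant and set the all-gene median at 0.11; normexp background correction set it at -0.24. The cytosolic median was -0.05 with slide as a block, and the mitochondrial median was 0.06 where arrays were scaled to their median spot, while the Trmt median was above 0 in every alternative run. Relative to the all-gene median of the same fit, the class medians were 0.28, 0.11 and -0.05 at the main setting. Under median scaling they are the same by construction. They were 0.35, 0.27 and -0.05 after normexp, and 0.26, 0.03 and -0.12 with slide as a block. With no filter on dim probes they were 0.57, 0.41 and 0.24. With slide as a block, every difference given below is that of NM401 replicate 1 alone against the 4 control arrays, since the other slide holds no control.

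**Figure D1:**
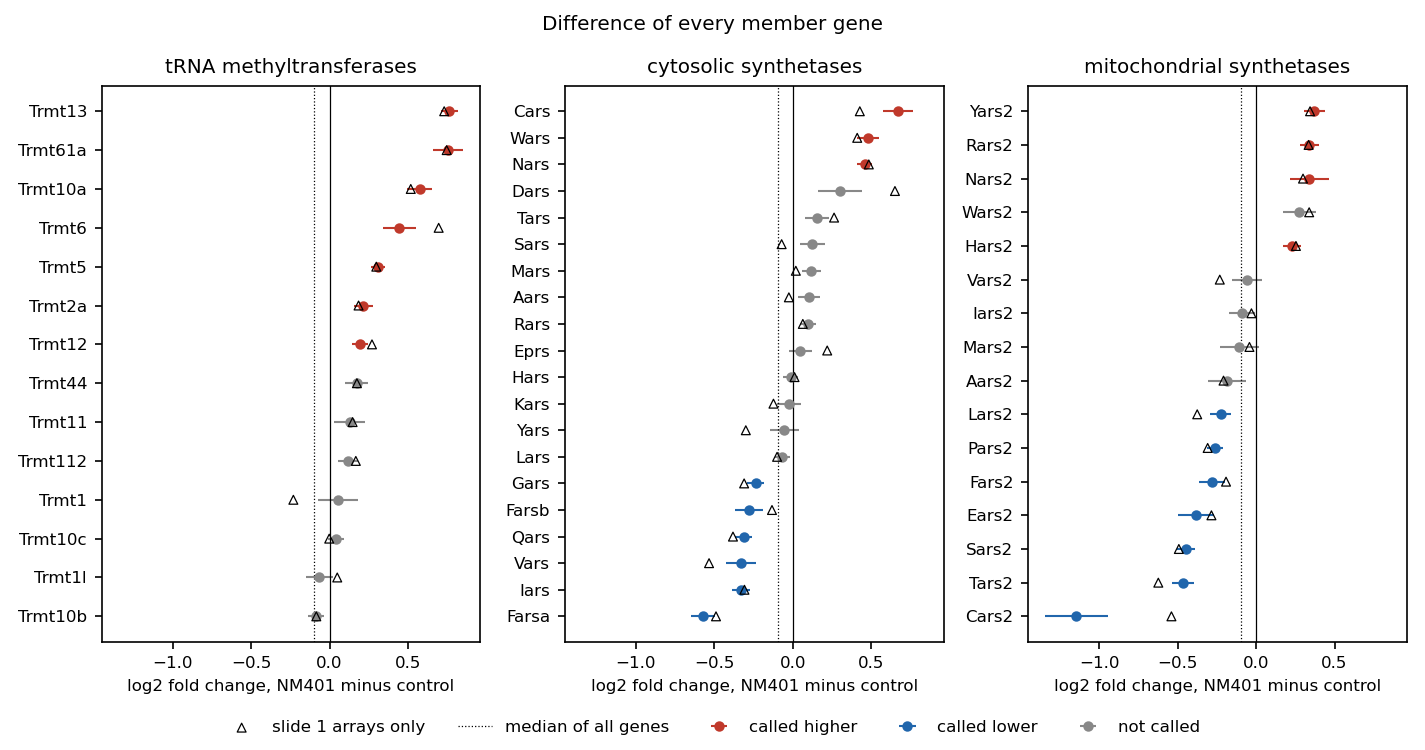
Log2 fold change (NM401 minus control, horizontal axis) of each of the 50 genes, in 3 panels by class, with bars of 1 SE (n = 4 arrays a group). Red points were called higher, blue lower and grey neither; triangles give the difference within slide 1, which rests on NM401 replicate 1, and the dotted line marks the all-gene median of -0.10. The Trmt panel holds no blue point, and Cars2 at -1.14 lies farthest from 0.

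Trmt13, Trmt61a, Trmt10a, Trmt6 and Trmt5 showed the largest differences among the methyltransferases whose groups did not overlap. Trmt13 adds a methyl group to a ribose of the tRNA acceptor stem, an activity known from its yeast homologue. Its probe lies on chromosome 2 at 212813059 to 212813118 (rn4 coordinates of the array annotation, as for the other probes below). Its level was -0.74, -0.74, -0.68 and -0.69 on the NM401 arrays, against -1.54, -1.49, -1.37 and -1.50 on the control arrays. All 4 NM401 levels lay above all 4 control levels, with little spread in either group, and the difference was 0.76 ± 0.05 (SE), a 1.70-fold higher signal.

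Trmt61a and Trmt6 encode the catalytic and the tRNA-binding subunit of the enzyme that methylates an adenosine in the T loop, a mark of initiator methionine tRNA among others. The Trmt61a level (probe on chromosome 6, 136465987 to 136466046) was 0.90, 0.96, 0.86 and 0.91 with NM401, against -0.01, 0.18, 0.01 and 0.42 in control. The control arrays spread more widely than the NM401 arrays but stayed below all of them, and the difference was 0.75 ± 0.10. Trmt6 (probe on chromosome 3, 120608866 to 120609396) stood at -0.56, -0.92, -0.96 and -0.79 with NM401, against -1.14, -1.26, -1.17 and -1.42 in control. NM401 replicate 1 was the highest of the 8, and the difference of 0.44 ± 0.11 was 0.70 within slide 1. Both subunits were thus higher with NM401, and a second Trmt6 probe was higher by 0.56 ± 0.06.

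Trmt10a methylates a guanosine at the foot of the acceptor stem of cytosolic tRNAs. Its level was -2.92, -2.85, -2.79 and -2.89 with NM401, against -3.56, -3.36, -3.27 and -3.56 in control. The groups were clear of each other and differed by 0.58 ± 0.08; a second probe gave 0.96 ± 0.10, and normexp background correction lowered the first value to 0.22. Trmt5 methylates the guanosine next to the anticodon, a mark that prevents frameshifting. Its level was -0.79, -0.81, -0.74 and -0.78 with NM401, against -1.08, -1.11, -1.09 and -1.08 in control, a narrow spread on both sides and a difference of 0.31 ± 0.04.

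The remaining called methyltransferases were Trmt2a, which makes the methylated uridine of the T loop, at 0.21 ± 0.06, and Trmt12, an enzyme of wybutosine synthesis in phenylalanine tRNA, at 0.19 ± 0.05. Neither group of arrays overlapped the other for these genes, but Trmt2a was not called with slide as a block, nor Trmt12 after normexp, where its difference was 0.05. The other 7 were not called. Trmt11 and its activating partner Trmt112, which together methylate a guanosine of the D-arm region, differed by 0.13 and 0.12. Trmt112 was called higher after normexp, under quantile normalisation, under median scaling and with the deposited series values. Trmt44, a ribose methyltransferase known from yeast, differed by 0.17 (0.22 and called higher without control replicate 1), and Trmt1, which places dimethylguanosine, by 0.05. Its paralog Trmt1l stood at -0.07. The Trmt10 family was mixed, since Trmt10c, the methyltransferase subunit of mitochondrial RNase P, differed by 0.04 and Trmt10b by -0.09. For Trmt10b all NM401 levels lay below all control levels although the gene was not called. Under median scaling Trmt11, Trmt44 and Trmt10c were called higher as well, beside 35.0% of all genes in that fit. In all, 7 Trmt genes had non-overlapping groups with NM401 higher and 1 with NM401 lower, beside 21% and 32.2% of all genes. Over the 50 members, groups did not overlap for 13 with NM401 higher and 13 with NM401 lower, beside 53.2% of all genes in either direction.

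**Figure D2:**
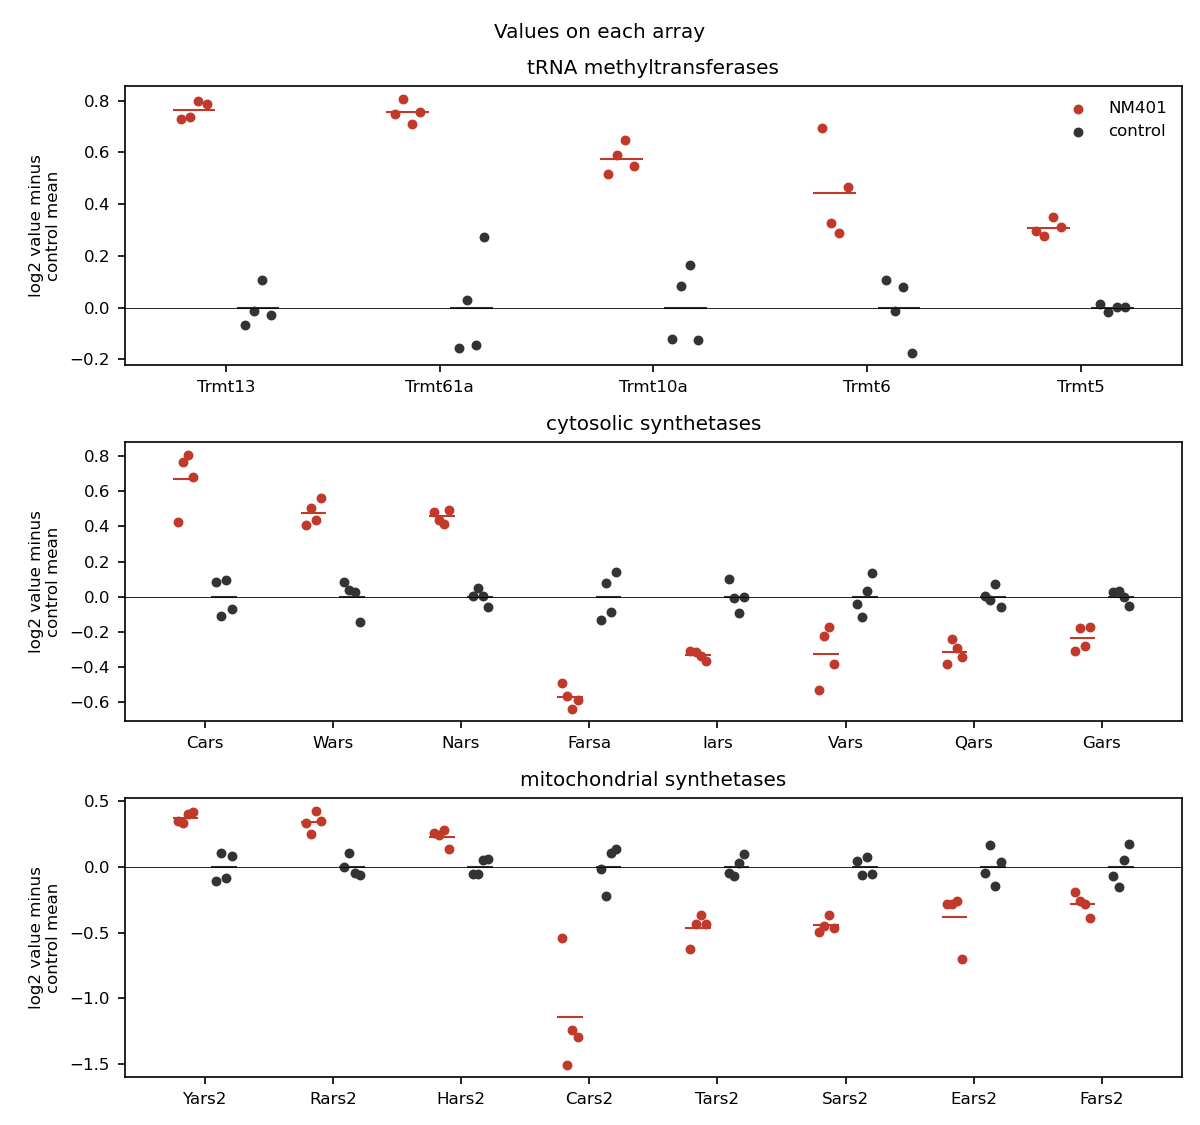
Level on each array minus the control mean of the same probe (log2, vertical axis) for the genes named with all 8 values, with NM401 arrays (red) left of control arrays (black) and lines at the group means, in 3 panels for methyltransferases, cytosolic and mitochondrial synthetases. No gene shown has overlapping groups; NM401 replicate 1 of Cars2 lies apart from the other NM401 arrays.

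Among the cytosolic synthetases, those for cysteine, tryptophan and asparagine were called higher and those for phenylalanine, isoleucine, valine, glutamine and glycine lower, with the direction for glycine turning under quantile normalisation. Cars, which charges tRNA with cysteine (probe on chromosome 1, 203935467 to 203935526), was at -0.96, -0.62, -0.58 and -0.70 with NM401, against -1.30, -1.50, -1.29 and -1.46 in control. NM401 replicate 1 was the lowest of its group but above every control, and the difference of 0.67 ± 0.10 was 0.43 with slide as a block. Wars, the tryptophan enzyme, known for its induction by interferon gamma in macrophages, was at 3.11, 3.21, 3.14 and 3.27 with NM401, against 2.79, 2.74, 2.73 and 2.56 in control. The groups were separate and differed by 0.48 ± 0.07, while a second Wars probe differed by 0.13 ± 0.07 and was not called. Nars, the asparagine enzyme, was at -1.29, -1.34, -1.36 and -1.28 with NM401, against -1.77, -1.73, -1.77 and -1.83 in control. Its spread was small in both groups, and the difference was 0.46 ± 0.05.

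Cytosolic phenylalanyl-tRNA synthetase is built of Farsa and Farsb subunits. Farsa (probe on chromosome 19, 24947696 to 24947755) was at 2.68, 2.60, 2.53 and 2.57 with NM401, against 3.04, 3.25, 3.08 and 3.30 in control. All NM401 values lay below all control values, a difference of -0.57 ± 0.07, or 0.67 times the control signal. Farsb differed by -0.28 ± 0.09; its groups overlapped, and the call was lost in 10 of 18 alternatives, among them leaving out control replicate 2, 3 or 4 or NM401 replicate 2 or 4.

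Iars, the isoleucine enzyme, was at 1.68, 1.68, 1.66 and 1.63 with NM401, against 2.10, 1.99, 1.90 and 1.99 in control, a difference of -0.33 ± 0.06 with no overlap. Vars, the valine enzyme, was at -1.97, -1.66, -1.61 and -1.82 with NM401, against -1.48, -1.56, -1.41 and -1.31 in control. The nearest NM401 and control values were close, and the difference of -0.33 ± 0.09 was -0.53 with slide as a block. Qars, the glutamine enzyme, was at 2.64, 2.78, 2.73 and 2.68 with NM401, against 3.03, 3.00, 3.10 and 2.96 in control, which set the groups apart by -0.31 ± 0.06. Gars, the glycine enzyme of both compartments, was at 4.49, 4.62, 4.52 and 4.63 with NM401, against 4.83, 4.83, 4.80 and 4.75 in control. Its difference of -0.24 ± 0.05, seen also with a second probe at -0.42 ± 0.11, became 0.07 under quantile normalisation, so the direction depends on the scaling. Scaling to the median spot ended the calls of Iars, Vars, Qars, Gars and Farsb, with differences between -0.13 and -0.03.

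Isoleucine and glutamine enzymes belong to the multisynthetase complex, a cytosolic assembly of synthetases held together by scaffold proteins. Of its 8 synthetase genes, 0 were called higher and 2 lower by limma, and the median difference was 0.01. Over all genes 21.9% were called higher and 35.4% lower. At an unadjusted limma p below 0.05 the 8 genes gave the same counts, beside 4280 higher and 6732 lower of all 17444 genes. Of the 8, those not called were Dars (0.30), Mars (0.12), Rars (0.10), Eprs (0.05), Kars (-0.02) and Lars (-0.07). Dars was called higher with slide as a block, at 0.65, and rests there on NM401 replicate 1, the array on which it was highest; without that array its difference was 0.18. Under median scaling Dars, Mars, Rars and Eprs were called higher, beside 35.0% of all genes in that fit. Mars was also called higher after normexp and with the deposited series values, and Rars under quantile normalisation. Eprs charges both glutamate and proline, and Kars also serves mitochondria. The 12 other cytosolic genes had 3 called higher and 4 lower, with a median of 0.05. Tars (0.15), Sars (0.13), Aars (0.10), Hars (-0.01) and Yars (-0.05) were not called. Sars was called higher without NM401 replicate 1, at 0.19. Median scaling called Tars, Sars and Aars higher, as did quantile normalisation for Tars and normexp for Aars. A second Hars probe was lower at -0.33 on the log2 scale.

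An amino acid response element binds ATF4 with C/EBP factors, and such elements are known in the promoters of several cytosolic synthetase genes. RefSeq promoter windows (GRCr8, 250 bases before to 50 after the gene start) could be matched for 45 of the 50 genes; Dars, Gars, Rars, Trmt10c and Trmt12 had none in the table. The motif TGATGNAA, searched on both strands, was found in 7 of 17 cytosolic synthetase windows (41.2%), in 0 of 12 Trmt windows and in 0 of 16 mitochondrial synthetase windows. It was found in 3.82% of all 27457 windows of that length. The 7 genes are shown because one cytosolic class holds every match among the members; capitals mark the match, with up to 11 bases on each side, on the strand of the gene, and TTGCATCA is the reverse complement of TGATGCAA.
Cars (chr1:208225334-208225363, minus strand): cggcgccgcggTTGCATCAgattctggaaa
Nars (chr18:60275778-60275807, minus strand): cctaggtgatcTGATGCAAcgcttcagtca
Iars (chr17:15193658-15193687, minus strand): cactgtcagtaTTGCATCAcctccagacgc
Tars (chr2:62114811-62114840, minus strand): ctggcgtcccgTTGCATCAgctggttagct
Mars (chr7:65023752-65023781, minus strand): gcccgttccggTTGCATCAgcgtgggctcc
Aars (chr19:55908480-55908509, plus strand): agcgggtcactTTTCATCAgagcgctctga
Yars (chr5:146820190-146820212, plus strand): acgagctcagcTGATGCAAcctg

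The matches began 14 bases before the start in Nars, 17 in Mars, 24 in Iars and 27 in Tars, and after the start in Cars, Yars and, at the match shown, Aars. Longer stretches are given for Nars, called higher, and Iars, called lower, since both carry the motif just before the start. Each is the 250 bases up to the start, with TGATGNAA and, in Iars, CACGTG matches in capitals.
Nars (chr18:60275783-60276032, minus strand): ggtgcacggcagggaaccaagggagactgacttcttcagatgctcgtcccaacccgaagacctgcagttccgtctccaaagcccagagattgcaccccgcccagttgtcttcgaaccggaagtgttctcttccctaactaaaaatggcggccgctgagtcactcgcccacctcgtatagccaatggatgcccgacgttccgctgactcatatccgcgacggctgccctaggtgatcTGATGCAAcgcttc
Iars (chr17:15193653-15193902, minus strand): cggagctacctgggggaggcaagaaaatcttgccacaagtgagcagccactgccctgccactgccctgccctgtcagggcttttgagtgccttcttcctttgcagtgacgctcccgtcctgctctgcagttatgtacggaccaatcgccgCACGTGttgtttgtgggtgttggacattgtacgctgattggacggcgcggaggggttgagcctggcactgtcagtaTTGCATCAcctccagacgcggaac

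At the main setting, genes with the motif did not share a direction. Cars and Nars were called higher, Iars lower, and Tars, Mars, Aars and Yars were not called, with a median of 0.12 over the 7. Of the 10 cytosolic synthetases whose window held no match, Wars was called higher, Farsa, Farsb, Qars and Vars lower and 5 neither, with a median of -0.04. The ranges of both sets overlapped widely, from -0.33 to 0.67 with the motif and from -0.57 to 0.48 without it. Under median scaling Tars, Mars and Aars were also called higher, and Iars was not called, at -0.13. Among genes without a match, Eprs and Sars were then also called higher, and Farsb, Qars and Vars were not called. Over all genes 21.9% were higher and 35.4% lower at the main setting, and 35.0% and 19.3% under median scaling.

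**Figure D3:**
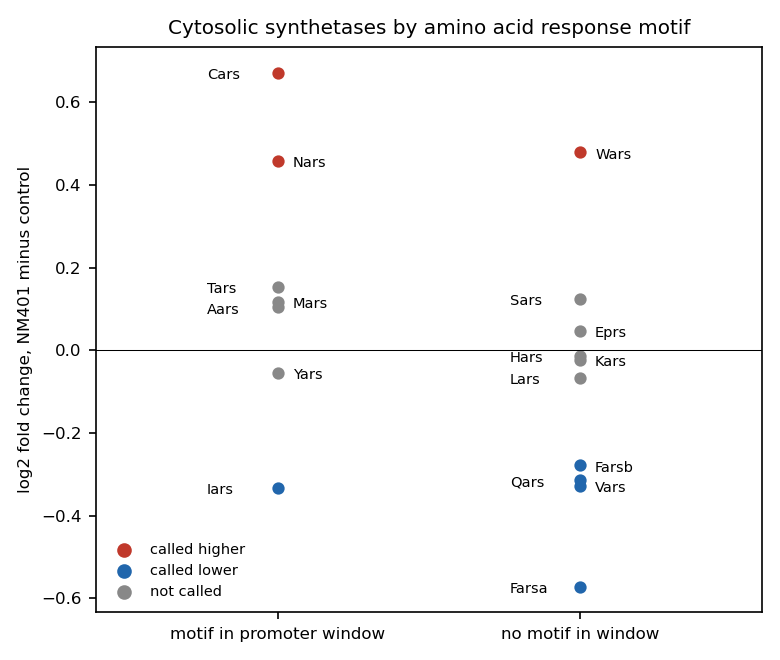
Log2 fold change (NM401 minus control, vertical axis) of 17 cytosolic synthetase genes with a promoter window, split by whether the window holds TGATGNAA. Points are single genes, coloured by call; Cars at 0.67 and Iars at -0.33 bound the 7 genes with the motif.

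The E-box CACGTG, a site of Myc and of TFE factors among others, was searched in the same windows and overlaps no TGATGNAA match in the members. It was found in 3 of 12 Trmt windows, 5 of 17 cytosolic and 1 of 16 mitochondrial synthetase windows, beside 6.65% of all windows. Both subunits of the T-loop adenosine methyltransferase carried it just after the start, as did Trmt1 before it, and those windows are printed for that shared feature, with the E-box in capitals.
Trmt61a (chr6:136558408-136558435, plus strand): cgcggcggagaCACGTGtagatcggaga
Trmt6 (chr3:140539471-140539498, minus strand): gcggcgtgcagCACGTGgaggcggttcc
Trmt1 (chr19:40371776-40371803, minus strand): tcagctattgtCACGTGaccggcccgcc

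Trmt61a and Trmt6 were called higher and Trmt1 was not. The 5 cytosolic synthetases with an E-box were Farsb, Iars and Vars, called lower, and Aars and Tars, not called. Ears2, called lower, was the mitochondrial one. A match in a window is a description of its letters.

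Mitochondrial synthetases moved in both directions, with Cars2 lowest. Cars2 charges mitochondrial tRNA with cysteine (probe on chromosome 16, 82835196 to 82835255). Its level was -2.71, -3.67, -3.41 and -3.46 with NM401, against -2.19, -2.39, -2.06 and -2.03 in control. All NM401 arrays lay below all control arrays, but replicate 1, the NM401 array that shares the slide of the controls, was nearer to them than the other 3. The difference was -1.14 ± 0.20, or 0.45 times the control signal, and -0.54 with slide as a block.

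Tars2, the threonine enzyme, was at -0.68, -0.49, -0.42 and -0.49 with NM401, against -0.10, -0.13, -0.03 and 0.04 in control. Sars2, the serine enzyme, was at -1.14, -1.10, -1.02 and -1.12 with NM401, against -0.61, -0.71, -0.58 and -0.70 in control. Neither showed overlap, and the differences were -0.46 ± 0.07 for Tars2 and -0.44 ± 0.06 for Sars2. Ears2, the glutamate enzyme, was at -4.76, -4.76, -4.74 and -5.18 with NM401, against -4.53, -4.32, -4.63 and -4.44 in control. Its values were near the lower end of what the arrays measured, where NM401 replicate 4 stood apart, and the difference of -0.38 ± 0.12 was not called without control replicate 2, with slide as a block, or under quantile or median scaling.

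Fars2, the single-chain mitochondrial phenylalanine enzyme, was at -2.63, -2.70, -2.73 and -2.83 with NM401, against -2.51, -2.60, -2.39 and -2.27 in control, a difference of -0.28 ± 0.08. A second, dimmer Fars2 probe was called the other way, at -3.78, -3.68, -3.63 and -3.89 with NM401 against -4.12, -3.94, -4.38 and -3.95 in control, a difference of 0.35 ± 0.11. The direction of Fars2 is therefore not settled by these arrays, and its call was also lost without NM401 replicate 4. Pars2, the proline enzyme, was lower at -0.26 ± 0.05 on the log2 scale with no overlap. Lars2, the leucine enzyme, was lower at -0.23 ± 0.07, at -0.38 with slide as a block and at -0.54 ± 0.20 on a second probe, and was not called without control replicate 3. That second probe was dim, with mean levels of -5.35 with NM401 and -4.82 in control, and its groups overlapped. Scaling to the median spot ended the calls of Fars2, Pars2 and Lars2, with differences of -0.08, -0.06 and -0.02.

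Yars2, the tyrosine enzyme, was at -2.79, -2.81, -2.74 and -2.73 with NM401, against -3.25, -3.03, -3.22 and -3.05 in control. Rars2, the arginine enzyme, was at -1.41, -1.50, -1.32 and -1.40 with NM401, against -1.75, -1.64, -1.79 and -1.81 in control. Hars2, the histidine enzyme, was at -2.05, -2.06, -2.03 and -2.17 with NM401, against -2.36, -2.36, -2.25 and -2.25 in control. For these genes every NM401 array was above every control array, by 0.37 ± 0.07, 0.34 ± 0.06 and 0.23 ± 0.06 on average. After normexp background correction Yars2 and Hars2 were not called, at 0.08 and 0.07, and Rars2 was at 0.22; Hars2 was also not called with slide as a block. Nars2, the asparagine enzyme, differed by 0.34 ± 0.13 with overlapping groups. Its call was lost in 11 of 18 alternatives, among them leaving out control replicate 1, 3 or 4 or NM401 replicate 1, 2 or 3. Wars2 (0.28), Vars2 (-0.06), Iars2 (-0.09), Mars2 (-0.11) and Aars2 (-0.19) were not called. Normexp background correction called 4 of these lower, with Mars2 at -0.56, Aars2 at -0.55, Vars2 at -0.32 and Iars2 at -0.17, while quantile normalisation put Mars2 at 0.090 and Aars2 at 0.0053. Like Ears2, both were near the lower end of what the arrays measured. The mean level of Mars2 was -5.21 with NM401 and -5.10 in control, and that of Aars2 -5.25 and -5.07. Wars2 was called higher under median scaling, at 0.48, and without control replicate 1, at 0.36.

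Glutamate and proline share the cytosolic gene Eprs (0.05, not called) and were left out of the pairs below. Their mitochondrial genes Ears2 (-0.38) and Pars2 (-0.26) were called lower. For 14 other amino acids both a cytosolic and a mitochondrial gene were measured. Both were called for 3 of them: the phenylalanine pair was lower (Farsa and, on its brighter probe, Fars2), the asparagine pair was higher (Nars and Nars2), and the cysteine pair was split, with Cars at 0.67 and Cars2 at -1.14. The log2 fold changes of the cysteine pair differed by -1.82 (mitochondrial minus cytosolic), the widest gap of the 14. For 9 amino acids one gene of the pair was called and for 2 neither was. Sars2 and Tars2 were lower while Sars and Tars were not called, and Yars2 and Rars2 were higher while Yars and Rars were not called; whether fold changes differ within a pair was not tested. The mitochondrial difference was below the cytosolic one in 8 of the 14.

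**Figure D4:**
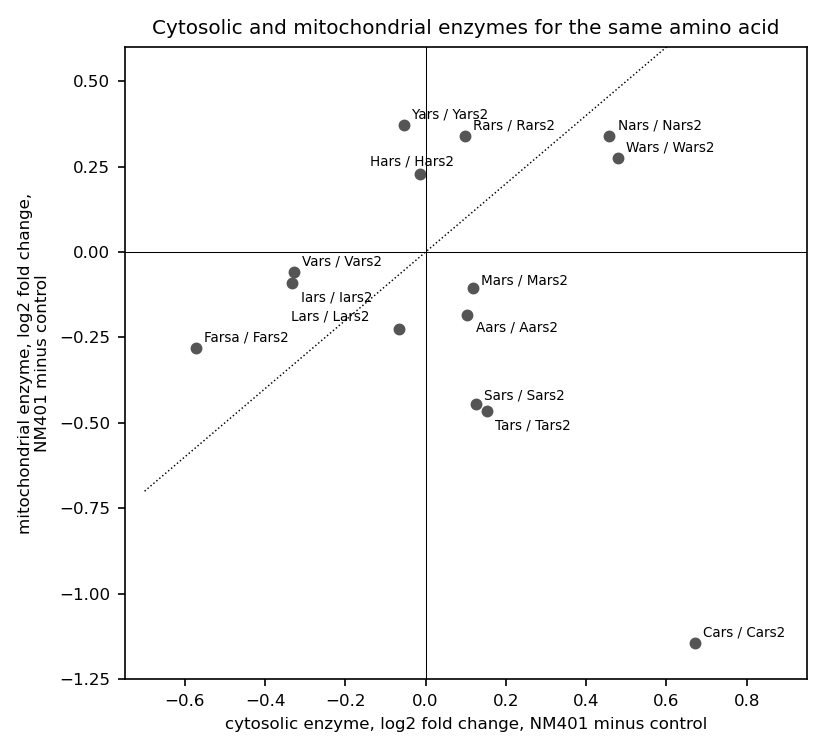
Log2 fold change (NM401 minus control) of the mitochondrial synthetase (vertical axis) against that of the cytosolic synthetase (horizontal axis) for 14 amino acids, each point 1 pair; the dotted line marks equal fold changes. The Cars and Cars2 pair lies at 0.67 and -1.14, away from the others.

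Of the 50 genes, 9 had a second tested probe. Both probes had the same call for 6 genes and opposite calls for Fars2. The other exceptions were Wars, where the second probe was not called, and Hars, where the first was not.

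Several of these genes start close to a neighbour transcribed the other way. Within 1000 bases, 12 members had such a neighbour in RefSeq (GRCr8), in 11 pairs, of which 10 were tested. Both genes were called in 2 pairs, each time in opposite directions: Trmt2a at 0.21 with Ranbp1, a regulator of nuclear transport, at -0.37 ± 0.06, and Ears2 at -0.38 with Ubfd1 at 0.23 ± 0.08. Hars and Hars2 start 144 bases apart, and Hars2 was called at 0.23 while Hars was at -0.01. The neighbour of Trmt13, the centriole gene Sass6, was at -0.08 ± 0.06 and not called, and that of Trmt6, the helicase gene Mcm8, at 0.11 ± 0.07 and not called. Swt1, beside Trmt1l, was higher by 0.61 ± 0.14 while Trmt1l was not called.

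Other steps of tRNA metabolism were described from lists of genes chosen by their known roles. Among 51 tested genes of other tRNA modifications, 20 were higher and 7 lower, with a median of 0.11. Thumpd1, the adaptor of tRNA cytidine acetylation, was higher by 0.69 ± 0.21, Mettl1, a tRNA guanosine methyltransferase, by 0.69 ± 0.16 and Trdmt1, a tRNA cytosine methyltransferase, by 0.68 ± 0.16. Tyw1, of wybutosine synthesis, was lower at -0.42 ± 0.06 and Hsd17b10, a partner of Trmt10c in mitochondrial RNase P, at -0.40 ± 0.05. Normexp gave 14 higher and 13 lower with a median of -0.01, and median scaling gave 28 higher and 2 lower. The median minus that of all genes in the same fit was 0.21 at the main setting and 0.22 after normexp. Median scaling leaves this gap at 0.21 by construction, since it shifts every gene by one constant. The gap was 0.51 with no filter on dim probes, 0.19 with slide as a block and 0.16 without control replicate 2.

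Among 40 tested genes of RNA polymerase III and tRNA processing, 18 were higher and 7 lower, with a median of 0.17. Polr3d, a polymerase III subunit, was higher by 0.92 ± 0.07, Trnt1, which adds the terminal CCA, by 0.73 ± 0.07 and Rpp38, of RNase P, by 0.69 ± 0.07. Gtf3c5, a subunit of the factor that binds tRNA genes, was lower at -0.43 ± 0.07, Pop5, of RNase P, at -0.38 ± 0.11 and Elac2, which trims the tRNA 3′ end, at -0.36 ± 0.07. Normexp gave 16 higher and 13 lower in this list, and median scaling 24 higher and 1 lower.

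Proteins that work with synthetases, 13 tested, had 4 higher and 3 lower, with a median of 0.05. Prorsd1, a relative of prolyl-tRNA editing domains, was higher by 0.31 ± 0.08, Sepsecs, of selenocysteinyl-tRNA synthesis, by 0.28 ± 0.07 and Xpot, the tRNA exporter, by 0.26 ± 0.07. Aarsd1, an alanyl-tRNA editing protein, was lower at -0.89 ± 0.20, Dtd1, which removes D-amino acids from tRNA, at -0.72 ± 0.09 and Pstk, which acts before Sepsecs, at -0.53 ± 0.06. The scaffold genes Aimp1 (0.05) and Aimp2 (0.06), named after their values were seen, were not called. Normexp gave 2 higher and 5 lower, and median scaling 7 higher and 3 lower.

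The 30 tested genes known as ATF4 targets or parts of the amino acid response had no common direction, with 9 higher, 8 lower and a median of -0.03. Nupr1, a stress-induced chromatin protein, was higher by 1.16 ± 0.10, Cebpg, a dimer partner of ATF4, by 1.04 ± 0.06 and Atf3 by 0.99 ± 0.12. Ddit4, an inhibitor of mTORC1, was lower at -0.88 ± 0.07, Sesn2, a leucine sensor, at -0.53 ± 0.14 and Slc38a2, an amino acid transporter, at -0.36 ± 0.05. Atf4 itself was higher by 0.58 ± 0.06 while Asns, asparagine synthetase, was lower at -0.34 ± 0.07; both were named after their values were seen. Quantile normalisation gave 12 higher and 5 lower in this list, median scaling 12 and 1, and normexp 8 and 10.

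Of 80 tested genes of mitochondrial translation, 19 were higher and 29 lower, with a median of 0.00. Mtrf1l, a mitochondrial release factor, was higher by 0.98 ± 0.07, and the ribosomal proteins Mrpl18 by 0.68 ± 0.06 and Mrpl46 by 0.56 ± 0.08. Mrps15 was lower at -1.07 ± 0.12, Mrpl37 at -0.61 ± 0.06 and Mrpl17 at -0.47 ± 0.05. Quantile normalisation gave 26 higher and 24 lower, median scaling 35 and 9, and normexp 19 and 34.

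Of 45 tested cytosolic translation factors, 12 were higher and 14 lower, with a median of -0.01. Eif2s2, a subunit of the factor that carries initiator tRNA, was higher by 0.67 ± 0.09, Eif3j by 0.62 ± 0.06 and the ribosome recycling factor Abce1 by 0.56 ± 0.08. Eif3f was lower at -0.74 ± 0.05, the elongation factor Eef2 at -0.65 ± 0.06 and Eif3k at -0.63 ± 0.08. Quantile normalisation gave 18 higher and 9 lower, median scaling 18 and 5, and normexp 12 and 14.

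**Figure D5:**
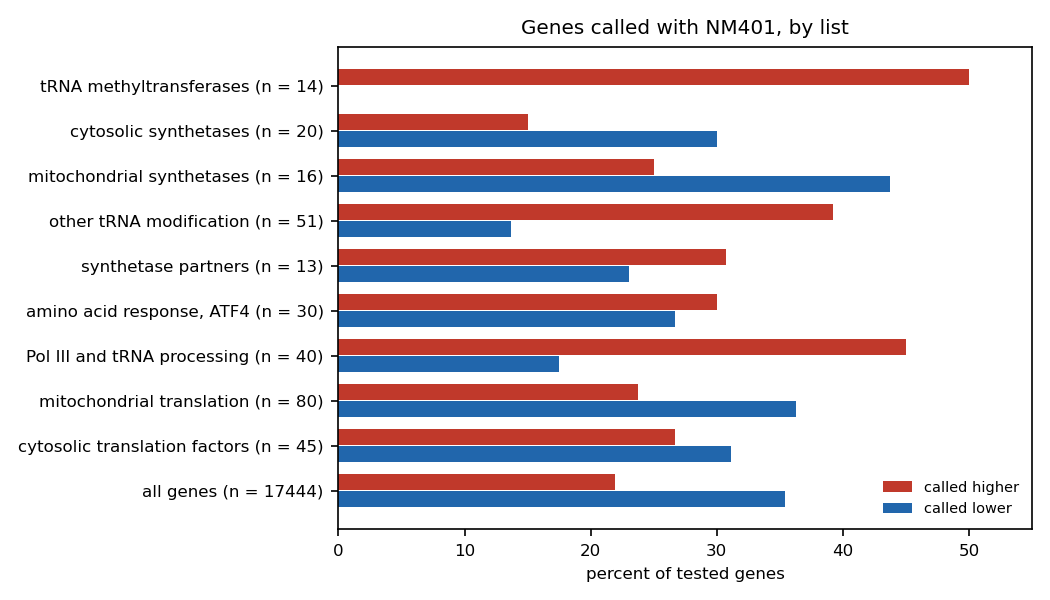
Percent of tested genes called higher (red) or lower (blue) with NM401 (horizontal axis) in the 3 classes, the 6 lists and all genes. All 17444 genes had 21.9% higher and 35.4% lower; the bars describe the lists at the main settings and were not tested against each other.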

How the data were processed

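The data were 8 one-colour Agilent arrays of total RNA, labelled with Cy3. Signals were read with Agilent Feature Extraction 11.0.1.1, as the submitters' processing notes name it. The deposited intensity values include a background-subtracted processed signal per spot, per the file headers; the deposited series values equalled the median signal at 503808 of 503808 spots. Log2 of the processed signal minus each array's 75th percentile over 58717 non-control spots was computed here, leaving out outlier-marked spots, and spots of a probe were averaged. The 21684 probes that stood well above background on 4 or more of the 8 arrays were fitted with limma 3.58.1 in R 4.3.3 (lmFit, eBayes, two-sided, Benjamini-Hochberg adjustment, called below 0.05), and files were read with data.table (version 1.17.8). The tested probe with the highest mean stood for its gene. The precision of each value is limited by the 4 arrays a group; replicate arrays correlated at 0.991 to 0.996 within NM401, 0.990 to 0.996 within control and 0.967 to 0.983 between groups. On simulated data of 21684 probes, 100 were given a log2 change of 0.5 and 100 a change of 1.0, with no slide effect. Of these, 43% and 87% were recovered, with 8 false calls. In the real data 57.3% of genes were called, so these rates do not describe the sensitivity or false calls of this contrast.

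The members and lists were chosen with earlier results of these data known. All 8 values were printed, in each class, for up to 5 genes in each direction with the largest difference among those called without overlap, and in each list up to 3 called genes in each direction whose probe was well above background on all 8 arrays; a few items are not reported here. Symbols are those of the array, and 21109 of the 45598 non-control probes matched a RefSeq gene. Alternatives were normexp (offset 50), quantile or median scaling, other filters, the series values, the mean of probes, slide or replicate number as a block, slide 1 alone, and leaving out each array.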

Additional observations from a re-analysis of the deposited data

Results flagged for a closer look

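Among 100 sets of 4 arrays (each of the 50 genes in each group), 3 held an array far from the other 3, where chance alone marks about 1 set in 20. Dars, the aspartyl-tRNA synthetase gene, was at 0.57 on NM401 replicate 1 with the nearest other NM401 array at 0.13. Ears2 was at -5.18 on NM401 replicate 4 with the nearest at -4.76. Trmt11 was at -1.68 on control replicate 1 with the nearest at -1.95.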

How the results depend on the processing

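Of the 27 called members, counts of those that stayed called in the same direction ran from 18 (median scaling, or no filter on dim probes) to 27 (well above background on all 8 arrays), except within slide 1, where the single NM401 array left 4, with 3 of the 50 members higher and 1 lower. Within slide 1 the share of all genes called also fell below that of the main setting, so the drop is not particular to the members. Median scaling gave 26 higher and 4 lower, beside 35.0% and 19.3% of all genes. Its medians were 0.39, 0.22 and 0.058 for Trmt, cytosolic and mitochondrial genes. No filter on dim probes gave 8 lower, beside 21.4% of all genes. Normexp gave medians of 0.11 (Trmt) and -0.28 (mitochondrial), the series values 0.12 and -0.26. Quantile normalisation gave 0.093 (cytosolic) and -0.029 (mitochondrial) and turned Gars to 0.071. The mean of all probes gave -0.10 for mitochondrial genes and turned Fars2 to 0.035, since its probes oppose each other. Slide as a block and slide 1 alone both gave -0.048 (cytosolic) and -0.20 (mitochondrial). Leaving out 1 array at a time gave 13 to 15 higher and 11 to 13 lower, beside 18.8% to 21.2% and 31.0% to 35.2% of all genes. The medians were then 0.16 to 0.21, 0.01 to 0.04 and -0.18 to -0.11 for Trmt, cytosolic and mitochondrial genes. The other causes were not tested. Deviations from the group means correlated at -0.06 to 0.19 between arrays of the same replicate number. These values do not settle whether the arrays were paired. Replicate number equalled slide column on every array. With the replicate block 14 were higher and 11 lower, beside 20.3% and 33.5% of all genes. Trmt genes had 0 lower calls in every alternative. All 50 genes had a probe well above background, but background treatment still moved several of them, such as Trmt10a, Yars2 and Mars2.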
